A study of Mus musculus with 6 samples.

Results

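Proteasome subunit genes were compared between mammary tumors and the adjacent normal glands of BK5.ATF3 mice. The members were the rows of the deposited expression table whose symbol starts with Psma, Psmb, Psmc or Psmd and a digit, without the immunoproteasome subunits *Psmb8* and *Psmb9*. There were 38 of them among 15280 genes, with 17 core members (Psma and Psmb) and 21 regulatory members (Psmc and Psmd). RNA-Seq had been carried out on 3 tumors and 3 normal glands, 1 of each from 3 mice. Gland libraries are labelled M and tumor libraries T with the number of the mouse, and values follow the order M11035, M11640, M9232, then T11035, T11640, T9232. All 6 libraries came from female BK5.ATF3 transgenic mice that had raised a litter, so the glands carried the transgene as well and no wild-type tissue was compared. In this strain, ATF3 is driven by a bovine keratin 5 promoter, which is active in basal epithelial cells. Tumors arose at 6 to 12 months of age and were collected at a length of 1.5 cm.

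The libraries held between 4750989 and 7806908 fragments on genes, and 3 fragments corresponded to 0.393 to 0.610 CPM (the deposited level, in fragments relative to the effective library size). The 7 epithelial markers summed to 230–501 CPM in glands and 2421–2811 CPM in tumors, and the 7 adipocyte markers to 3102–6252 and 149–206 CPM. Of the epithelial markers, 6 passed the test, with the basal keratin gene *Krt14* the highest (log2 fold change 5.75). *Epcam* did not pass (0.56, adjusted p = 0.124 by limma), and gland M9232 lay above the 3 tumors in it. B cell markers (142–358 against 2.23–4.09 CPM) and T cell markers (136–372 against 17.4–29.5 CPM) were lower in the tumors, and 5 fibroblast markers were higher in sum (645–2409 against 5516–5904 CPM), of which the collagen genes *Col1a1* (log2 fold change 4.63) and *Col1a2* (3.75) passed the test, while *Pdgfra* and *Dcn* had lower tumor means. Glands M11035 and M11640 stood apart from the others, with 3679 and 1455 CPM of 5 skeletal muscle markers against 4.24 CPM in gland M9232 and 7.08–13.8 CPM in the tumors. None of the markers of these lists was at 0 in all libraries of a tissue. The mouse *Atf3* row, the gene of the factor that the transgene encodes, stood at 4.47, 8.09 and 22.6 CPM in the glands and 13.4, 18.3 and 19.3 CPM in the tumors (adjusted p = 0.223). The sums of the epithelial, adipocyte, B cell and T cell markers move with the tumor label. Gland M9232 lay below the tumors in muscle markers and above them in *Atf3* and *Epcam*. The part of these differences in the results for the proteasome genes was not tested.

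The proteasome is the barrel-shaped protease that degrades ubiquitin-tagged proteins in the cytosol and nucleus. Its core particle is built of rings of α subunits, which form the gate, and rings of β subunits, some of which carry the proteolytic sites. The regulatory particle caps the core. Its ATPases unfold the substrate and open the gate, and its non-ATPase subunits bind and remove the ubiquitin chain. Subunits are needed in fixed proportions, and their genes are known to be transcribed together in mammalian cells. Under interferon, the catalytic β subunits are replaced by the inducible forms of the immunoproteasome.

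Of the 38 members, 31 encode constitutive subunits (7 of the α ring, 7 of the β ring, 6 ATPases and 11 non-ATPases). All 31 had a higher fitted level in tumors than in glands, by a modest amount. Their log2 fold change (FC) had a median of 0.41 and ran from 0.07 to 0.71, while the median of all 15280 genes was -0.00276. At an adjusted p of at most 0.05 (limma), 12 of the 38 members rose (31.6%) and 0 fell, beside 21.6% and 19.6% of all genes. At an unadjusted p under 0.05, 17 members were higher and 0 lower, beside 25.6% and 24.2% of all genes. None of the 38 was a differentially expressed gene (DEG), which also needs an FC of at least 2, against 14.5% of all genes as higher and 13.7% as lower DEGs. The 95% confidence interval (CI) of the log2 FC lay inside a 2-fold change either way for 30 of the 38, beside 6135 of all 15280 genes. In bulk tissue, a higher level per cell and a larger share of cells with a high level cannot be told apart.

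**Figure D1:**
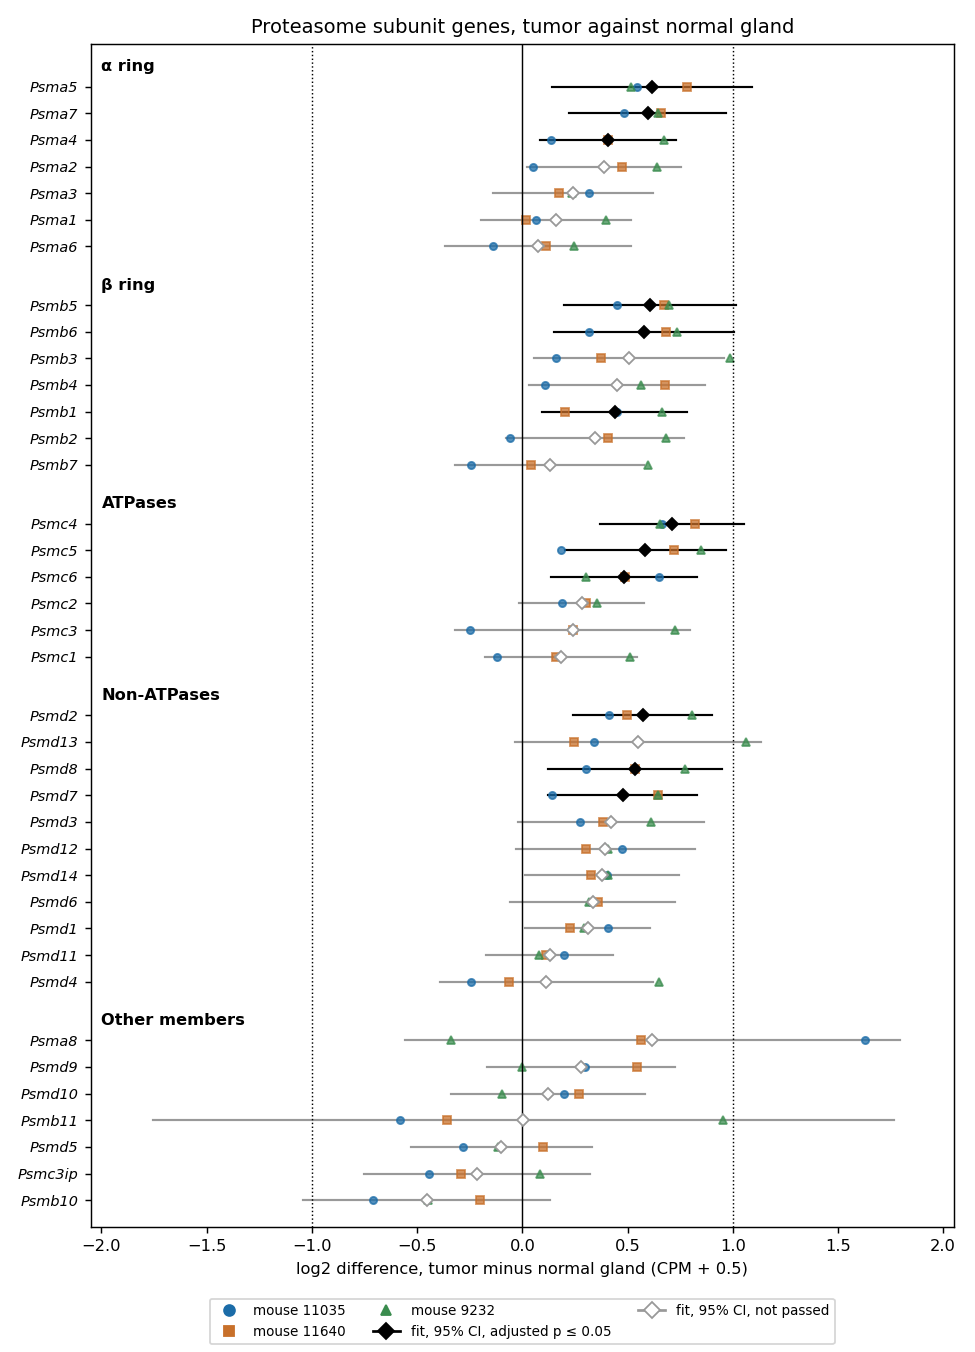
The log2 difference between tumor and normal gland (horizontal axis, CPM + 0.5) for the 38 members, in rows grouped by role. Diamonds are the limma estimates with 95% CI, filled where the adjusted p was at most 0.05, small symbols are the 3 mice, and dotted lines mark a 2-fold change. All 31 constitutive subunits have an estimate above 0, and the 12 filled diamonds lie between 0.41 and 0.71.

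The size of the difference varied between mice. The per-mouse log2 difference of the 31 constitutive subunits had a median of 0.27 for T11035 against M11035, 0.38 for T11640 against M11640 and 0.64 for T9232 against M9232. It was above 0 in all 3 mice for 25 of the 31, beside 5232 of all 15280 genes. In 19 of the 31, the 3 tumors all lay above the 3 glands, which held for 27.6% of all genes. None of the other 7 members was among them.

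Summed over the 14 constitutive core subunits, the level was 1222, 1392 and 1233 CPM in the glands and 1372, 1772 and 1760 CPM in the tumors. T11035 lay below M11640 in this sum, so the tissues overlapped. The 17 constitutive regulatory subunits summed to 1227, 1342 and 1215 CPM in the glands and 1521, 1731 and 1687 CPM in the tumors, without overlap. The median log2 FC was 0.42 for the core and 0.39 for the regulatory subunits. The sum of the core over the sum of the regulatory subunits was 0.996–1.04 in glands and 0.902–1.04 in tumors.

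The number of called members depended on the libraries. It was 12 with all libraries and 7, 5 and 4 without M11035, M11640 or M9232. Without T11035, T11640 or T9232 it was 9, 1 and 3. As a share of the members, these 6 counts were 18.4%, 13.2%, 10.5%, 23.7%, 2.63% and 7.89%, beside 19.3%, 18.7%, 19.7%, 19.0%, 15.2% and 17.3% of all genes in the same fits. The members' share was thus below that of all genes in 5 of the 6 fits and above it without T11035. Without M11035 and M11640 together, which held the skeletal muscle transcripts, 2 members were called, *Psmc4* and *Psmd2* (5.26%, beside 12.3% of all genes). The log2 FC was above 0 for 29 to 31 of the 31 constitutive subunits in the fits that leave out a library. With the mouse as a block, 10 members were called. *Psmd7* (adjusted p = 0.0549), *Psma4* (0.068) and *Psmb1* (0.0703) were not, and *Psmd12* was (0.0433). *Psma4* and *Psmb1* were also not called with edgeR on the recovered fragments (adjusted p = 0.0529 and 0.0528).

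In the α ring, *Psma4*, *Psma5* and *Psma7* rose and the other 4 did not pass the test, with a median log2 FC of 0.39 over the 7. *Psma5* (chr3:108059844-108082892, plus strand, mm9) was the highest. It stood at 86.6, 117 and 119 CPM in the glands and at 127, 202 and 171 CPM in the tumors. Every tumor was above every gland, and M11035 and T11035 were the lowest of their tissue. The log2 FC was 0.62 ± 0.21 (SE, n = 3 per tissue, adjusted p = 0.0425 by limma). This call was lost without M11035, M11640, T11640 or T9232, with an adjusted p of up to 0.163. *Psma7* stood at 97.6, 116 and 116 CPM in glands and 137, 184 and 181 CPM in tumors, so its tissues did not overlap either (log2 FC 0.60 ± 0.16, adjusted p = 0.019). It was not called without M11035, T11640 or T9232 (adjusted p of up to 0.0844), and *Psma4* was called without M11035 alone among these fits (up to 0.145). The lowest was *Psma6* (chr12:56485209-56519441, plus strand), at 136, 176 and 151 CPM in glands and 124, 191 and 180 CPM in tumors. Its tissues overlapped, and T11035 was below M11035. The log2 FC was 0.07 with a 95% CI from -0.37 to 0.52.

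In the β ring, *Psmb1*, *Psmb5* and *Psmb6* rose, and the median of the 7 was 0.45. *Psmb5*, which carries the chymotrypsin-like site that proteasome inhibitors bind, was the highest (chr14:55232644-55236851, minus strand). It stood at 14.03, 11.7 and 13.4 CPM in the glands and 19.4, 19.0 and 22.03 CPM in the tumors. The tissues did not overlap, and the log2 FC was 0.61 ± 0.18 (adjusted p = 0.0258). *Psmb6*, which carries the caspase-like site, stood at 26.6, 30.4 and 26.4 CPM in glands and 33.3, 49.1 and 44.2 CPM in tumors (chr11:70338869-70341360, plus strand). T11035 was close to the highest gland (log2 FC 0.58 ± 0.19, adjusted p = 0.0376). *Psmb7*, which carries the trypsin-like site, was the lowest of the ring (chr2:38443556-38499607, minus strand). It stood at 139, 161 and 121 CPM in glands and 117, 165 and 182 CPM in tumors, with overlapping tissues and T11035 below M11035. Its log2 FC was 0.13 with a 95% CI from -0.32 to 0.58. The calls of *Psmb5* and *Psmb6* each held in 1 of the 6 fits that leave out a library, without M11035 for *Psmb5* and without T11035 for *Psmb6*. Their adjusted p rose to at most 0.0808 and 0.151, and *Psmb1* was not called in any of the 6 (0.0515 to 0.129).

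Among the 6 ATPases, *Psmc4*, *Psmc5* and *Psmc6* rose. *Psmc4* had the highest log2 FC of all 38 members (chr7:28826726-28835120, minus strand). It stood at 27.4, 26.8 and 26.1 CPM in the glands and 43.7, 47.6 and 41.4 CPM in the tumors. The 3 glands lay close together (26.8 ± 0.661 CPM, SD) and far below the tumors (44.2 ± 3.14 CPM). The log2 FC was 0.71 ± 0.15 (adjusted p = 0.00563), with a 95% CI from 0.37 to 1.05. It was called in all 15 alternative fits, with an adjusted p of 0.0346 at most among those that leave out a library. *Psmc5* stood at 82.1, 74.2 and 73.3 CPM in glands and 93.2, 122 and 133 CPM in tumors, where T11035 was the closest to its own gland (log2 FC 0.58 ± 0.17, adjusted p = 0.0226). *Psmc6* stood at 87.6, 111 and 103 CPM in glands and 138, 156 and 127 CPM in tumors, where T11035 was the farthest from its own gland (log2 FC 0.48 ± 0.15, adjusted p = 0.0334). *Psmc5* was not called without M11640, M9232, T11640 or T9232 (adjusted p of up to 0.0899), nor *Psmc6* without M11035, M9232, T11035 or T11640 (up to 0.133). The lowest ATPase was *Psmc1*, at 73.6, 65.6 and 60.7 CPM in glands and 67.7, 73.4 and 86.9 CPM in tumors (chr12:101348396-101361574, plus strand). Its tissues overlapped, and its 95% CI ran from -0.18 to 0.55.

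Of the 11 non-ATPases, *Psmd2*, *Psmd7* and *Psmd8* rose. *Psmd2*, a large scaffold subunit that docks ubiquitin receptors and shuttle proteins, was the highest (chr16:20651725-20663487, plus strand). It stood at 79.5, 85.4 and 70.6 CPM in the glands and 106, 121 and 124 CPM in the tumors, and the tissues did not overlap. The log2 FC was 0.57 ± 0.14 (adjusted p = 0.0131), and only the fit without T11640 lost the call among the 15 alternatives (adjusted p = 0.0578). *Psmd7* was called without M11035 or T11035 but in none of the other 4 fits that leave out a library (up to 0.133), and *Psmd8* in none of the 6 (0.0517 to 0.127). *Psmd14*, the deubiquitinase that cuts the chain from the substrate, had a log2 FC of 0.38 (adjusted p = 0.0896) with the 3 tumors above the 3 glands. *Psmd13* had a log2 FC of 0.55 but a wide spread, at 20.7, 14.5 and 12.3 CPM in glands and 26.4, 17.3 and 26.2 CPM in tumors (adjusted p = 0.12). The lowest was *Psmd4*, a ubiquitin receptor, at 32.7, 24.1 and 21.2 CPM in glands and 27.5, 23.1 and 33.6 CPM in tumors (chr3:94836616-94846536, minus strand). It was higher than its own gland in T9232 alone, and its 95% CI ran from -0.39 to 0.62.

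**Figure D2:**
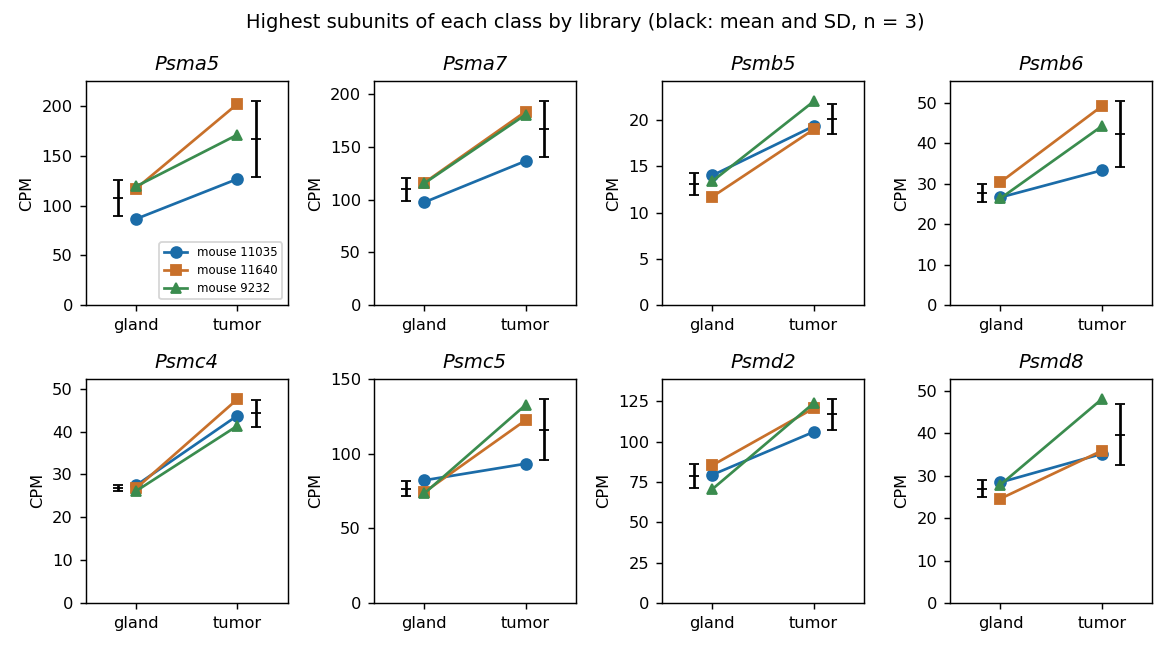
CPM by library (vertical axes, from 0) of the highest pair of called subunits of each class, in the normal gland and the tumor of each mouse, joined by lines. Black marks show the mean and SD of 3 mice. In all 8 panels each line goes up and the lowest tumor lies above the highest gland, as for *Psmc4*, with glands at 26.1 to 27.4 CPM and tumors at 41.4 to 47.6 CPM.

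The other 7 members are inducible, tissue-restricted, assembly or unrelated genes, and 0 of them were called. Their median log2 FC was 0.00. *Psmb10*, the interferon-inducible counterpart of *Psmb7*, stood at 15.2, 9.58 and 16.1 CPM in glands and 9.12, 8.26 and 11.7 CPM in tumors. It was lower in the tumor of all 3 mice, the only one of the 38 members to be so, but the tissues overlapped (log2 FC -0.45 ± 0.26, adjusted p = 0.191). The assembly chaperones of the regulatory particle did not pass the test either. *Psmd5* stood at 41.1, 47.9 and 47.2 CPM in glands and 33.7, 51.4 and 43.5 CPM in tumors, *Psmd9* at 12.0, 10.1 and 13.8 CPM against 14.9, 14.9 and 13.8 CPM, and *Psmd10* at 33.3, 45.8 and 45.3 CPM against 38.3, 55.3 and 42.3 CPM. All 3 overlapped between the tissues.

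The thymus-restricted *Psmb11* stood at 11.4, 1.65 and 4.79 CPM in glands and 7.44, 1.18 and 9.74 CPM in tumors, with a 95% CI of the log2 FC from -1.76 to 1.77. The testis form *Psma8* stood at 0.203, 0.991 and 2.60 CPM in glands and 1.67, 1.70 and 1.95 CPM in tumors (adjusted p = 0.37). Its value in M11035 lay below the 0.610 CPM that 3 fragments make there. *Psmc3ip* encodes a meiotic recombination protein that binds the product of *Psmc3* and is no subunit. It stood at 15.9, 14.7 and 9.58 CPM in glands and 11.5, 11.9 and 10.2 CPM in tumors (adjusted p = 0.495).

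Divided by transcript length, the levels of the subunits differed more between genes than between tissues. In glands, the mean CPM per kb of transcript ranged from 38.9 to 148 in the α ring, from 15.0 to 121 in the β ring, from 18.6 to 58.2 among the ATPases and from 3.88 to 80.7 among the non-ATPases. In tumors the same ranges were 51.5–183, 23.1–133, 27.1–88.2 and 5.30–105. *Psma6* had the highest level per kb in glands (148), *Psma7* in tumors (183), and *Psmd3* the lowest of the 31 subunits in both (3.88 and 5.30). Across the 31 subunits the levels per kb in the 2 tissues had a Spearman's rho of 0.98. The points share transcript models and libraries, so this is a description only.

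**Figure D3:**
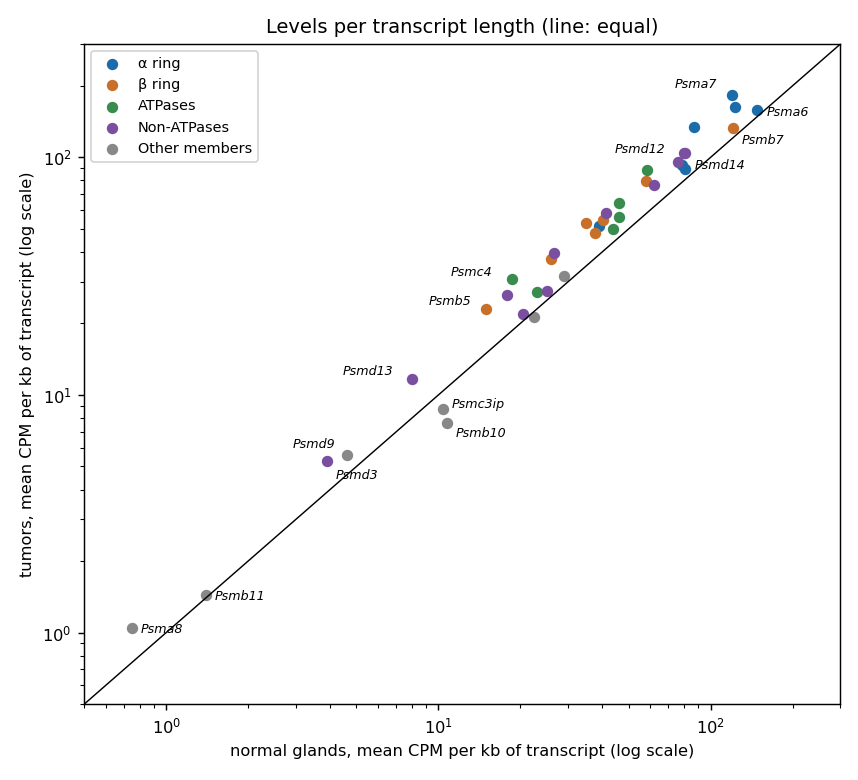
Mean CPM per kb of transcript in the normal glands (horizontal axis) and the tumors (vertical axis) for the 38 members, on log scales. Colors give the role and the line marks equal levels. The 31 constitutive subunits lie above the line, from *Psmd3* at 3.88 and 5.30 to *Psma6* at 148 and 158.

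Promoters were taken from RefSeq (GRCm38.p6) as windows from 250 bases before to 50 after the annotated start, and 31 of the 38 members had an entry (33 promoters). They were searched on both strands for the antioxidant response element core TGACNNNGC, which binds NRF1 and NRF2, the CCAAT box (CCAAT), the GC box (GGGCGG), the AP-1 site (TGANTCA) and the CRE (TGACGTCA). The TGACNNNGC core can share bases with the AP-1 site or the CRE. Capitals mark every match. Shown are *Psmc4*, *Psma5* and *Psmb5* as the highest of the ATPases, the α ring and the β ring, and *Psmb6* and *Psmc6* because, with *Psmb5*, they are the called members with the TGACNNNGC core. The windows are chr7:28050043-28050342 (minus), chr3:108256676-108256975 (plus), chr14:54617946-54618245 (minus), chr11:70525107-70525406 (plus) and chr14:45329574-45329873 (plus).
Psmc4: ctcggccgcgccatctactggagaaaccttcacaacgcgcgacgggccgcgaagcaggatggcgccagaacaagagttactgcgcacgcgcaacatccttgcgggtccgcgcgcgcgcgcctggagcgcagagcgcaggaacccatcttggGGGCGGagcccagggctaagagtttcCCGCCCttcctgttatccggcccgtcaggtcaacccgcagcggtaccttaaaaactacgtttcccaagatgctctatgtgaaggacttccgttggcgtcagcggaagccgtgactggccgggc
Psma5: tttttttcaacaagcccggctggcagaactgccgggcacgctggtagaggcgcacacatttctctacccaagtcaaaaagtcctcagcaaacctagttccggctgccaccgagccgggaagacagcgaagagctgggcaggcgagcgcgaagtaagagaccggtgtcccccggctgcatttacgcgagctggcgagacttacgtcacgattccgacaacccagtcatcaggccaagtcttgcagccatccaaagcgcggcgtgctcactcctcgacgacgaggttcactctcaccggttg
Psmb5: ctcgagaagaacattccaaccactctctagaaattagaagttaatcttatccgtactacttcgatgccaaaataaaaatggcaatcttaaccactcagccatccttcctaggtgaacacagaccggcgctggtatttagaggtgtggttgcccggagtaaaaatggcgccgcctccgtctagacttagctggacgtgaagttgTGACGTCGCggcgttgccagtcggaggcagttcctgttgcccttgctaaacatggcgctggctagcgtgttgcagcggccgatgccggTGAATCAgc
Psmb6: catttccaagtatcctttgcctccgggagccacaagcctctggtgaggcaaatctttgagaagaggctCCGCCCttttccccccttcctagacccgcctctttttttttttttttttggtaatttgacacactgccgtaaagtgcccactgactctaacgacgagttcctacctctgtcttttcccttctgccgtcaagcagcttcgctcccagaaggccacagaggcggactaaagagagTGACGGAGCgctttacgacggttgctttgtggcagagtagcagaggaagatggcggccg
Psmc6: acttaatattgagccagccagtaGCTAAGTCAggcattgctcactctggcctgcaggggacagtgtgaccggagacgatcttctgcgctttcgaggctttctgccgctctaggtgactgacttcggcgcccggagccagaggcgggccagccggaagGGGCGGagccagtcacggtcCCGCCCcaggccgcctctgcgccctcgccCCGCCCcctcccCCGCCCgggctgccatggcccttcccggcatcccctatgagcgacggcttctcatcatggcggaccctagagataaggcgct

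In these windows, the first base of a match counts from the start site. The TGACNNNGC core lay at -47 in *Psmb5*, at -9 in *Psmb6* and at -227 in *Psmc6*. *Psmc4* held a GC box at -99 and another at -73, and *Psma5* held none of the 5 motifs. Among members, 15.2% of promoters held the TGACNNNGC core, against 12.4% of all 32851 promoters of the table and 14.2% of those of genes measured here. The core was found in 3 of 10 promoters of called members and in 2 of 23 of the others, *Psmd9* and *Psmd12*. The CCAAT box was in 39.4% of member promoters and 37.4% of all, and within the members in 1 of 10 called and 12 of 23 others. The GC box was in 54.5% of member promoters, 35.7% of all and 57.4% of those of measured genes. Within the members it was in 8 of 10 called and 10 of 23 others. The AP-1 site was in 6.06% against 7.81% of all, and within the members in 1 of 10 called and 1 of 23 others. The CRE was in 0 of the 33 against 1.79% of all. A match is a stretch of letters in the window and not a tested binding site.

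The 3 catalytic subunits of the core each have an inducible form, and the ratio of the pair was calculated in every library. The ratios were not divided by transcript length, so their level is not a ratio of molecules, while length cancels in the difference between tissues. Per kb of transcript, *Psmb9* had a mean of 58.7 CPM in glands and 26.9 in tumors, and *Psmb6* 34.8 and 52.9. *Psmb8* had 47.2 and 33.5, and *Psmb5* 15.0 and 23.1. *Psmb8* over *Psmb5* had a log2 ratio of 2.39, 2.01 and 2.93 in the glands and of 1.31, 1.31 and 1.59 in the tumors. All 3 tumors lay below all 3 glands (2.45 ± 0.46 against 1.40 ± 0.16, SD, n = 3). *Psmb9* over *Psmb6* was at 1.28, 0.86 and 2.13 in glands and at -0.0080, -0.61 and -0.0097 in tumors, again without overlap (1.42 ± 0.65 against -0.21 ± 0.35). *Psmb10* over *Psmb7* was at -3.15, -4.00 and -2.86 in glands and -3.61, -4.24 and -3.91 in tumors, where the tissues overlapped. Each ratio was lower in the tumor of all 3 mice.

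The differences were -1.05, -1.63 and -0.58 on the log2 scale. In a two-sided exact permutation test of 3 tumors against 3 glands, p was 0.1, 0.1 and 0.3, and 0.15, 0.15 and 0.3 after adjustment over the 3 ratios. The smallest p this design allows is 0.1. Paired by mouse, the exact sign-flip p was 0.25 for each ratio, the smallest possible. Without M11035 and M11640 the differences were -1.53, -2.33 and -1.06. Beside the constitutive subunits that rose, *Psmb9* fell (79.3 ± 33.0 against 36.4 ± 6.54 CPM, log2 FC -1.05, adjusted p = 0.0157), though not without T11035 or T11640 (adjusted p = 0.0547 and 0.0664). *Psmb8* was at 76.8 ± 28.4 and 54.5 ± 10.9 CPM (log2 FC -0.44, adjusted p = 0.237). It passed the test without M11640 (adjusted p = 0.0413). B and T cell markers were lower in the same tumors, by the sums given above. The 5 macrophage markers summed to 224–798 CPM in glands and 384–608 CPM in tumors. Of these, 0 passed the test and 4 had a log2 FC above 0. The part of such differences in the levels and ratios of *Psmb8* and *Psmb9* was not tested.

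**Figure D4:**
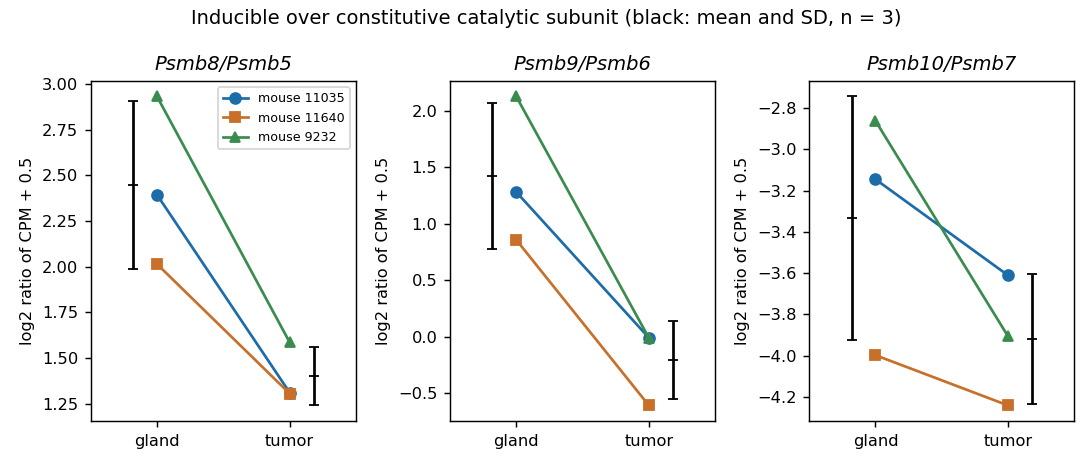
Log2 ratio of the inducible over the constitutive catalytic subunit (vertical axes, CPM + 0.5, not starting at 0) in the normal gland and tumor of each mouse, joined by lines, with mean and SD of 3 mice in black. Every line goes down, and for *Psmb8*/*Psmb5* and *Psmb9*/*Psmb6* the tumors (at most 1.59 and -0.0080) lie below the glands (at least 2.01 and 0.86).

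Genes that work with the proteasome were examined by lists. Among 6 other proteasome-associated proteins, 2 rose, *Shfm1* (19.1, 20.3 and 19.2 CPM in glands, 27.9, 28.6 and 38.5 CPM in tumors, log2 FC 0.67, adjusted p = 0.019) and the deubiquitinase *Usp14* (log2 FC 0.46, adjusted p = 0.0436). *Shfm1* was not called without T9232 (adjusted p = 0.0612), nor *Usp14* without M11035, M9232, T11035 or T11640 (up to 0.152). The lowest was *Uchl5* (log2 FC 0.11). None of 5 assembly chaperones outside the Psm rows passed the test, from *Psmg2* (log2 FC -0.14) to *Psmg3* (0.80, adjusted p = 0.0834). Of 6 activators and inhibitors, the interferon-inducible cap subunit *Psme1* fell, from 182 ± 31.8 to 113 ± 20.8 CPM (log2 FC -0.70, adjusted p = 0.0164), and *Psme3* was the highest (0.34, adjusted p = 0.195). The fall was not shared by *Psme2*, at 121 ± 18.1 CPM in glands and 118 ± 12.7 CPM in tumors (log2 FC -0.03, adjusted p = 0.902). This call of *Psme1* was lost without M9232, T11035 or T11640 (adjusted p of up to 0.0698).

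Upstream of the proteasome, 3 of 6 ubiquitin and ubiquitin-activating enzyme genes rose, the ubiquitin gene *Rps27a* (log2 FC 0.78, adjusted p = 0.0258) and the activating enzymes *Uba6* (0.74, adjusted p = 0.00251) and *Uba1* (0.42, adjusted p = 0.0466). *Uba6* was called in every alternative fit. *Rps27a* was not called without M11640, M9232, T11640 or T9232 (adjusted p of up to 0.0915), nor *Uba1* with the mouse as a block (0.0615) or without any library but T11035 (up to 0.148). Of 9 shuttle and unfoldase genes, *Rad23b*, which carries ubiquitinated proteins to the proteasome, rose from 134 ± 0.753 to 255 ± 50.6 CPM (log2 FC 0.91, adjusted p = 0.00294).

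The factors known to drive proteasome genes moved in different directions. *Nfe2l2*, which encodes NRF2, stood at 110, 129 and 141 CPM in glands and 230, 295 and 263 CPM in tumors. It was a DEG (log2 FC 1.05 ± 0.16, adjusted p = 9.06e-04). *Nfe2l1*, which encodes NRF1, the factor that induces subunit genes when the proteasome is impaired, stood at 208, 206 and 167 CPM in glands and 101, 118 and 150 CPM in tumors. It fell (log2 FC -0.66 ± 0.18, adjusted p = 0.0178), and the call was lost without M11640, T11035 or T11640 (adjusted p of up to 0.0671). *Ngly1*, whose product processes NRF1, fell from 133 ± 10.02 to 66.2 ± 5.799 CPM (log2 FC -0.998, adjusted p = 7.13e-04).

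Other large complexes gave the scale of the difference. For the COP9 signalosome, whose architecture resembles part of the regulatory particle, 0 of 9 genes passed the test, and the median log2 FC was 0.29 (from *Cops8* at -0.13 to *Cops5* at 0.46). With the mouse as a block, without M11640 or without T11035, 1 of the 9 passed. For the translation initiation factor eIF3, 6 of 12 rose, and the 12 had a median of 0.49 (from *Eif3c* at 0.12 to *Eif3b* at 0.70). This count was 4 with the mouse as a block. Without M11035, M11640 or M9232 it was 5, 3 and 4, and without T11035, T11640 or T9232 it was 8, 1 and 1. Without M11035 and M11640 together it was 1. For the CCT chaperonin, 6 of 8 rose, and the 8 had a median of 0.59 (from *Cct7* at 0.32 to *Cct3* at 0.77). It was 5 or 6 in every fit that leaves out a library and 2 without M11035 and M11640 together. The proteasome medians of 0.42 and 0.39 lay between these values. Proliferation genes summed to 465–696 CPM in glands and 961–1552 CPM in tumors, and 8 of 10 rose. The log2 FC of the 10 ran from *Pcna* at 0.25, which was not called (adjusted p = 0.267), to *Ccnb1* at 2.72. The part of this difference in the levels of the proteasome genes was not tested.

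**Figure D5:**
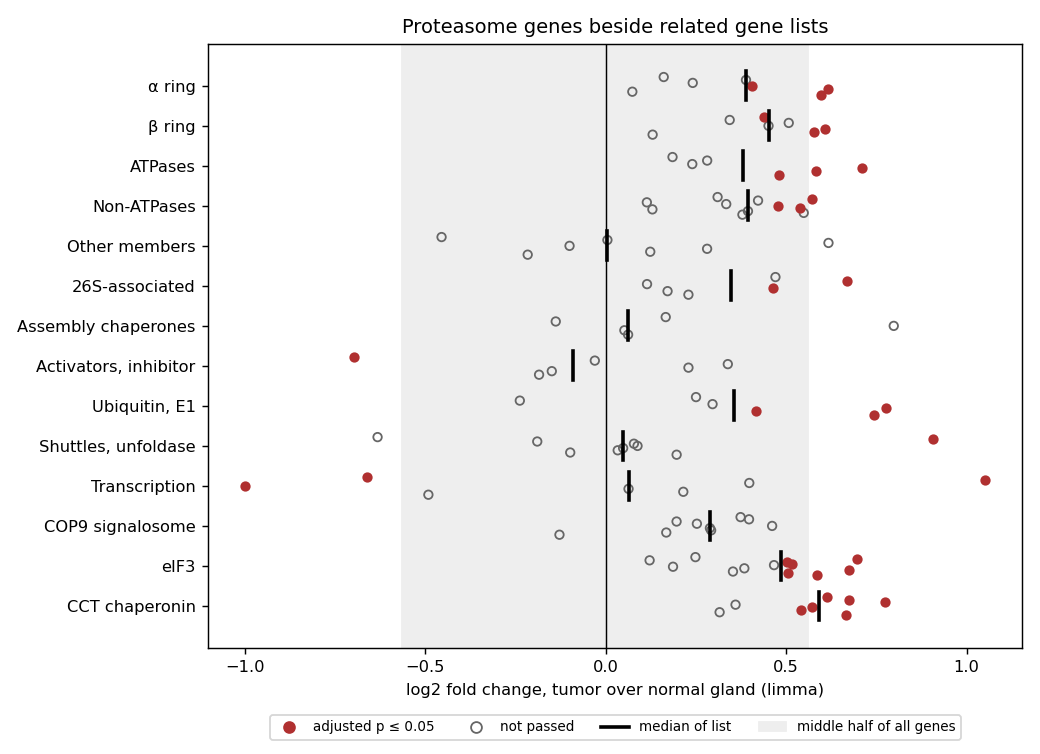
Log2 FC between tumor and normal gland (horizontal axis) of the members by role and of related gene lists (rows). Filled points passed an adjusted p of 0.05, black bars are the median of a list, and the grey band spans the quartiles of all 15280 genes, from -0.56 to 0.56. The medians of the subunit classes lie at 0.38 to 0.45, inside the band.

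Sequence similarity and neighbors limit some of these values. A genomic copy of at least 95% identity over at least 200 bp was found outside the gene for 9 of the 38 members, which include 5 of the 12 called. These are *Psmd2* (2912 of 2961 bp of the transcript), *Psma4* and *Psmb5* (the whole transcript), *Psma5* (994 bp) and *Psmc6* (217 bp), whose fragments could have been split with the copy. *Psmc4*, *Psmc5*, *Psma7*, *Psmb1*, *Psmb6*, *Psmd7* and *Psmd8* had none. Exons of 5 members overlapped another gene of the table, *Psmd13*, *Psmd1*, *Psmc3*, *Psmc3ip* and *Psmb7*, and none of these was called. Outside the members, exons of *Psmb9* overlapped *Tap1* on the opposite strand. The copy of *Psmb5* and the overlaps of *Psmb7* and *Psmb9* could bear on the catalytic ratios as well.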

How the data were processed

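RNA-Seq libraries of 3 mammary tumors and 3 matched normal glands were used, grouped by the labels. The authors prepared them with the Ovation RNA-Seq System V2, mapped read pairs to mm9 with TopHat2 2.0.3, counted fragments per RefSeq gene with HTSeq 0.5.3p9 and removed genes under 10 fragments. The deposited signal is CPM on the effective library size of edgeR 3.6.1, so column totals differ. In all 6 libraries, 100% of the values were whole multiples of the value of 1 fragment (tolerance 0.01), and the recovered fragments gave the same TMM effective sizes. How reads with several genomic matches or strand were treated is not given in the sources used here.

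Genes were tested with limma 3.58.1 (R 4.3.3) with a mean-variance trend. Values were log2(CPM + 0.5), tests were two-sided, and p-values were adjusted by Benjamini-Hochberg across the 15280 genes. The call was an adjusted p of at most 0.05, and a DEG also needed an FC of at least 2. Both thresholds are those of the study, which tested with edgeR and set a length condition that was not applied here. Fold changes are on this scale and understate those of low genes. The samples came from 3 separate mice, and no replicates were copies (lowest chi-square per degree of freedom 12.4). Tumor and gland of a mouse share the animal, so the numbers pair them. Deviations from the group means correlated at 0.107 (M11035 with T11035), 0.151 (M11640 with T11640) and 0.0168 (M9232 with T9232) over 14712 genes. The test was checked on data simulated without the pairing by mouse. That check required calls at large changes only. Passing it does not show how often changes as small as those of the members are called. Alternatives were pseudocounts of 0.1 and 1, a mean of at least 1 CPM, scaling to total fragments, DESeq2 1.42.0 size factors, edgeR 4.0.16 and DESeq2 on recovered fragments, the mouse as a block and leaving out each library. The fits without 2 glands were added after seeing the data.

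Positions and transcript lengths (of the transcript with the longest coding sequence) were taken from GENCODE vM1 (mm9), and copies were searched with BLAST 2.17.0. Values in every library are given for the highest and lowest gene of each subunit class, the catalytic subunits and the members that are no constitutive subunit, and other lists are given by their highest and lowest gene, some of which are not reported here. The rule allows single values of other members. Library values of *Psma7*, *Psmc5*, *Psmc6* and *Psmd13*, and *Usp14*, *Uba1*, *Uba6* and *Psme2*, were added after their values were seen. Members and lists were chosen with earlier results of these data known. Counting precision covers counting error only, since no molecular identifiers are named. Of the listed genes, *Paaf1* and *Eif3j* have no row under these symbols.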

Additional observations from a re-analysis of the deposited data

How the results depend on the processing

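With all libraries, 3293 of 15280 genes, 6 core and 6 regulatory members were called higher in tumors. Leaving out each library in turn gave 0 to 5 core members and 1 to 5 regulatory members, with a median log2 FC of 0.32 to 0.47 for the core and 0.29 to 0.43 for the regulatory members. In these 6 fits 15.2% to 19.7% of all genes were called higher, and the members' share was below that of all genes in 5 of them. Without M11035 and M11640, the counts were 1880 genes, 0 core and 2 regulatory members, and the log2 difference of *Psmb8*/*Psmb5* was -1.53 and that of *Psmb9*/*Psmb6* -2.33. In that fit the lone gland is assumed to vary like the tumors, and fewer samples were tested. edgeR on the recovered fragments called 3210 genes higher and 3013 lower in tumors. Scaling to total fragments and edgeR each gave 4 core and 6 regulatory members, and DESeq2, its size factors, both pseudocounts and the filter gave 6 and 6. With the mouse as a replicate block, 3306 genes, 4 core and 6 regulatory members were called, 9 of these 10 members shared with the fit without it. Of 570 member values under 15 alternatives each, 501 stayed on their side of the threshold, 64 lost the call and 5 gained it. The 64 all belong to the 12 members called with all libraries, while the 501 include the values of members that were never called. The lowest value of a constitutive subunit was 8.07 CPM (*Psmd3* in M9232), well above the 0.393 to 0.610 CPM of 3 fragments. Among the members, *Psma8* alone had a value below that of 3 fragments. *Psmb11* was low as well, at 1.65 CPM in M11640 and 1.18 CPM in T11640.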
